A study of Homo sapiens with 6 samples.

Results

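The genes of iron transport and storage described here are 10 of the 34234 in the deposited counts, taken by symbol: TF, TFRC, TFR2, SLC11A2, SLC40A1, HAMP, FTH1, FTL, IREB2 and ACO1. RNA was sequenced after poly-A selection from HCCLM3, an established, highly metastatic line of human hepatocellular carcinoma. The cells had received a lentivirus with a hairpin against ATXN7L3 (shATXN7L3, 3 libraries) or a control hairpin (shcontrol, 3 libraries). All cells were of this 1 line and grown in DMEM with fetal bovine serum. The labels give neither the hairpin sequences nor the time of harvest, nor whether each replicate was a culture of its own. The spread behind every p-value is therefore that of these libraries and may be technical.

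Cells take up iron bound to transferrin through the transferrin receptor, carry it across the endosomal membrane, store it inside ferritin and release it through ferroportin. The liver is the main source of circulating transferrin and of hepcidin, the peptide hormone that removes ferroportin from the cell surface. The mRNAs of several of these proteins carry a short hairpin, the iron-responsive element, to which iron regulatory proteins bind when iron is scarce: in a 5′ UTR the binding blocks translation, and in the 3′ UTR of the transferrin receptor mRNA it protects the transcript.

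The genes were chosen by their measured differences between shATXN7L3 and shcontrol in these same libraries, so those differences are given as a description with no test. Libraries held 22376867 to 23915783 counts. The targeted gene, ATXN7L3, an adaptor of the deubiquitinase module of the SAGA coactivator complex, averaged 20.2 ± 0.655 CPM, counts scaled to the TMM-adjusted library size, in shATXN7L3 and 37.1 ± 0.647 CPM in shcontrol (SD, n = 3 each; log2 fold change -0.88 ± 0.056, SE; edgeR adjusted p = 6.69e-10). Its groups did not overlap, and an exact permutation test on log2 CPM, two-sided, gave p = 0.1, the smallest value that 3 against 3 libraries allow. Hepatocyte markers were present at low level: 5 of 7 reached 1 CPM on average over the 6 libraries, APOA1 and TTR did not, and their summed level ran from 108 to 114 CPM in shATXN7L3 and from 216 to 224 CPM in shcontrol. Of the markers of other cell types, 2 of 3 cholangiocyte, 2 of 4 endothelial, 1 of 5 stellate cell and fibroblast (LUM) and 1 of 4 leukocyte markers (CD68) reached 1 CPM by the same measure. None of the 3 erythroid markers measured did, and no listed marker in the table was at 0 in every library.

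Iron-responsive elements were located in GENCODE 29 protein-coding transcripts (GRCh38) as a C, 5 bases, the loop CAGTGN and 5 bases that pair with those before the loop, G-U pairs allowed. They are shown because they divide the genes by the position of the element. Capitals mark the CAGTGN loop, and each line gives 29 bases of the transcribed strand, 5′ to 3′.
FTH1, 5′ UTR, chr11:61967574-61967602, minus strand: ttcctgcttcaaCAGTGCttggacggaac
FTL, 5′ UTR, chr19:48965335-48965363, plus strand: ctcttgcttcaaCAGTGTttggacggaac
SLC40A1, 5′ UTR, chr2:189580661-189580689, minus strand: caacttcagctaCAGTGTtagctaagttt
TFRC, 3′ UTR, chr3:196050979-196051007, minus strand: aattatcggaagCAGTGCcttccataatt
TFRC, 3′ UTR, chr3:196050575-196050603, minus strand: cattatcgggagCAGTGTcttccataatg
TFRC, 3′ UTR, chr3:196050510-196050538, minus strand: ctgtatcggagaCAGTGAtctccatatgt
TFRC, 3′ UTR, chr3:196050463-196050491, minus strand: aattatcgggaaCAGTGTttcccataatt
Both ferritin genes and SLC40A1 thus held 1 match each near the start of the transcript, and TFRC held 4 in its 3′ UTR. A further match lay in the 3′ UTR of 1 TF transcript at chr3:133792673-133792701, beyond the last base of TF in the deposited counts, 133779006. No match in SLC11A2, IREB2, ACO1, HAMP or TFR2 says only that these letters with this pairing were not found in their transcripts. The same pattern was present in the 5′ UTR of 36 and the 3′ UTR of 121 of 16127 protein-coding genes searched (0.223% and 0.750%).

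HAMP and TFR2 were barely detected. HAMP, which encodes hepcidin (chr19:35280716-35285143), had 1, 2 and 1 counts in shATXN7L3 and 1, 0 and 0 counts in shcontrol. TFR2, the second transferrin receptor, which acts with hepcidin control in hepatocytes (chr7:100620416-100642779), had 0, 1 and 1 counts in shATXN7L3 and 1, 2 and 0 counts in shcontrol. These counts lie under the floor of 3 per library, no fold is given, and a difference between the groups was not detectable at this depth. The other 8 genes passed the filter on low counts and were fitted with the rest of the transcriptome.

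The carrier TF differed most. TF, transferrin (chr3:133745956-133779006, plus strand), stood at 36.1, 34.8 and 36.6 CPM in shATXN7L3, against 206, 185 and 226 CPM in shcontrol. Every shATXN7L3 library was far below every shcontrol library, and the 3 shATXN7L3 libraries lay within 2 CPM of each other. The log2 fold change of -2.52 ± 0.063 (SE) left 17.4% of the shcontrol level and ranked 4 from the lowest among 17935 tested genes. In bulk RNA, fewer cells that express a gene and less RNA per cell cannot be told apart. Summed hepatocyte markers were lower in shATXN7L3 too, as given above, and the marker sums of 4 other cell types also differed without overlap (erythroid sums overlapped). Endothelial markers summed to 42.4 to 44.4 CPM in shATXN7L3 and 57.2 to 62.1 CPM in shcontrol, and stellate cell and fibroblast markers, nearly all of it LUM, to 5.31 to 5.86 CPM in shATXN7L3 and 23.6 to 28.0 CPM in shcontrol. Cholangiocyte markers summed to 74.0 to 80.9 CPM in shATXN7L3 and 54.3 to 67.4 CPM in shcontrol, and leukocyte markers, nearly all of it CD68, to 120 to 125 CPM in shATXN7L3 and 89.9 to 110 CPM in shcontrol. Markers of 1 list did not all move alike. KRT19 averaged 67.9 CPM in shATXN7L3 and 51.6 CPM in shcontrol, but KRT7, also cholangiocyte, 7.63 and 10.4 CPM. The endothelial PECAM1 averaged 28.0 CPM in shATXN7L3 and 43.7 CPM in shcontrol, but KDR 15.3 and 15.5 CPM. Within a library, TF counts were 1.42, 1.48 and 1.57 times those of ALB, the albumin gene, in shATXN7L3, against 3.26, 2.80 and 3.41 times in shcontrol. TF was therefore lower relative to ALB as well, and the part of these markers in the difference of TF was not tested.

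TF shares 191 exon bases with the pseudogene TFP1 on the same strand (between 133753595 and 133754576 of chromosome 3), which is 2.23% of the exon bases of TF and 8.24% of those of TFP1. TFP1 had 74, 100 and 91 counts in shATXN7L3 and 347, 345 and 414 counts in shcontrol (log2 fold change -2.15 ± 0.11, SE; edgeR adjusted p = 1.35e-11). Reads of the shared bases cannot be told apart. With every TFP1 count subtracted from TF, the log2 fold change of TF was -2.56 ± 0.065 (SE), close to the value without subtraction.

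The 250 bases upstream of a TF start in RefSeq (GRCh38.p14, chr3:133746143-133746392, plus strand) are shown because TF had the largest difference of the 8 genes. They lie inside the span of TF in the deposited counts, which begins at base 133745956. Capitals mark matches to 2 of 4 motifs searched on both strands.
TF, upstream of the start: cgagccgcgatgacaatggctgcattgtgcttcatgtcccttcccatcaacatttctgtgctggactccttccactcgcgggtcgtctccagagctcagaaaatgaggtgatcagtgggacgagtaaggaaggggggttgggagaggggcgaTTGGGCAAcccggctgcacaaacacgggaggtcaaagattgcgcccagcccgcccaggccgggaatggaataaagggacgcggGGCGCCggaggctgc
The first run in capitals matches TTGCNNAA (C/EBP) on the opposite strand, beginning 98 bases before the start, and the second matches GGCGCC, the core of the BMP response element, beginning 15 bases before it. Of 35116 RefSeq windows of this length, 9.05% held the first motif and 16.4% the second. RefSeq also lists a distant TF start whose upstream window ends at base 133661997, next to base 133661998, where TFP1 begins in the deposited counts. The other motifs were ACGTG, the hypoxia response core, in 18.5% of windows, and TTCNNNGAA (STAT) in 6.57%. ACGTG was found upstream of TFRC, 88 bases before its start, and of FTL. HAMP held TTCTTGGAA, a STAT match, 93 bases before its start. GGCGCC was also found upstream of HAMP (105 bases before the start), TFRC (201), ACO1 (123) and 1 of the starts of IREB2 (11), and at 157 and 121 bases before the distant TF start. No upstream window was available for FTH1 or TFR2, and a link between these motifs and the differences of the genes was not tested. No match to the 4 motifs was found upstream of SLC40A1 or SLC11A2. The windows of HAMP, SLC40A1 and IREB2, and some of those of SLC11A2, also lie inside the deposited spans of these genes. A match is a description of letters, not of a bound site.

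The receptor and importer were lower by a smaller amount. TFRC, transferrin receptor 1 (chr3:196027183-196082189, minus strand), had 420, 390 and 404 CPM in shATXN7L3, against 486, 487 and 498 CPM in shcontrol, with no overlap. Its log2 fold change was -0.28 ± 0.043 (SE), or 82.6% of the shcontrol level. SLC11A2, the divalent metal transporter DMT1, which moves iron out of endosomes (chr12:50979401-51028566, minus strand), had 42.4, 38.4 and 39.3 CPM in shATXN7L3, against 48.4, 51.0 and 49.1 CPM in shcontrol. Again the groups were separate, and the log2 fold change was -0.31 ± 0.053 (SE). Across the 6 libraries these 2 genes had the most similar patterns of the 28 pairs among the 8 genes, with a root mean square difference of 0.0353 between their log2 CPM deviations from their own means. These deviations include the difference between the groups, by which the genes were chosen. The similarity therefore largely restates their close log2 fold changes.

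Ferroportin was lower than the importers relative to its own control level. SLC40A1, the cellular iron exporter (chr2:189560579-189583758, minus strand), had 47.5, 49.1 and 45.1 CPM in shATXN7L3, against 79.3, 90.4 and 89.9 CPM in shcontrol. All shATXN7L3 libraries lay below the lowest shcontrol library, replicate 1. The log2 fold change of -0.87 ± 0.056 (SE) left 54.6% of the shcontrol level. It was -0.93 when shcontrol replicate 1 was left out. Because receptor and exporter differed by unequal amounts, the ratio of TFRC to SLC40A1 counts within a library was 8.84, 7.95 and 8.95 in shATXN7L3 and 6.12, 5.38 and 5.54 in shcontrol, a ratio 1.51 times as high in shATXN7L3. Such ratios do not depend on the scaling between libraries.

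**Figure D1:**
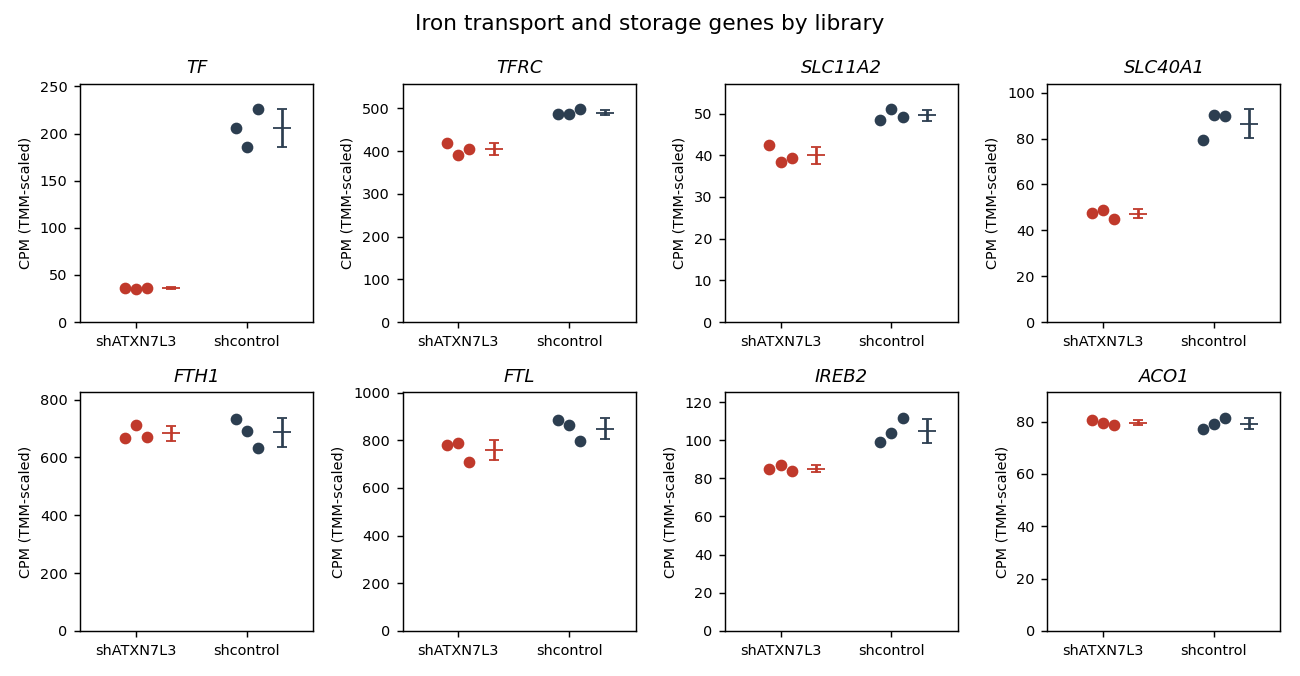
Each panel plots the TMM-scaled CPM (vertical axis, from 0) of 1 of the 8 detected genes in the 3 shATXN7L3 libraries (red) and the 3 shcontrol libraries (dark blue), with mean and SD beside the points. TF lies between 34.8 and 36.6 CPM in shATXN7L3 and between 185 and 226 CPM in shcontrol, while FTH1 and ACO1 overlap between the groups.

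The ferritin subunits moved little. FTH1, the heavy subunit with ferroxidase activity (chr11:61959718-61967660, minus strand), had 668, 713 and 669 CPM in shATXN7L3 and 733, 692 and 634 CPM in shcontrol. The groups overlapped, and the log2 fold change was -0.01 ± 0.051 (SE), the shcontrol libraries spreading more widely than those of shATXN7L3. FTL, the light subunit (chr19:48965301-48966878, plus strand), had 779, 789 and 709 CPM in shATXN7L3 and 883, 865 and 797 CPM in shcontrol. Its groups were separate by a narrow margin, 789 against 797 CPM, and the log2 fold change was -0.16 ± 0.050 (SE). FTL left the genes past the threshold with scaling by library size alone, when shcontrol replicate 2 was left out, and when shATXN7L3 replicate 1 or 3 was, with log2 fold changes from -0.21 to -0.11 over all alternatives.

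Counts of FTH1 carry a reservation. On the opposite strand, BEST1, a chloride channel gene of the retinal pigment epithelium, covers 1267 of the 2030 exon bases of FTH1 (62.4%), and the sources used here do not give the strand setting of the counting. BEST1 had 8695, 9519 and 8734 counts in shATXN7L3 and 9025, 8140 and 7868 counts in shcontrol. That was 0.560, 0.554 and 0.546 of the FTH1 count in shATXN7L3 and 0.547, 0.541 and 0.545 of it in shcontrol, nearly the same share in every library. Without strand, reads over the shared bases cannot be told apart. With all BEST1 counts subtracted, an alternative chosen after seeing the data, the log2 fold change of FTH1 was -0.03 ± 0.051 (SE). Because the BEST1 share was nearly constant, this subtraction could change the fold only little. It therefore cannot show whether the overlap affects the value of FTH1. The 16 FTH1 and 5 FTL pseudogenes in the table added little: their summed counts were at most 0.599% of those of FTH1 and 0.243% of those of FTL in any library. The most abundant, FTH1P10 and FTLP3, had log2 fold changes of 0.06 ± 0.24 and -0.01 ± 0.21 (SE).

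The balance of the subunits shifted slightly within libraries. FTH1 counts were 0.858, 0.903 and 0.944 times those of FTL in shATXN7L3 and 0.830, 0.800 and 0.795 times in shcontrol, without overlap. With BEST1 counts subtracted the ratios were 0.378, 0.403 and 0.428 in shATXN7L3 and 0.376, 0.367 and 0.361 in shcontrol, so that the lowest shATXN7L3 value nearly touched the highest shcontrol value. The 2 genes together took 0.148%, 0.151% and 0.140% of all counts in shATXN7L3 and 0.158%, 0.151% and 0.144% in shcontrol.

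The paralogous iron regulatory proteins differed from each other. IREB2, iron regulatory protein 2, which is degraded when iron is plentiful (chr15:78437431-78501456, plus strand), had 84.7, 87.1 and 83.7 CPM in shATXN7L3, against 98.9, 104 and 112 CPM in shcontrol. The groups were separate and the log2 fold change was -0.30 ± 0.050 (SE). ACO1, cytosolic aconitase, which binds iron-responsive elements when it has lost its iron-sulphur cluster (chr9:32384603-32454769, plus strand), had 80.6, 79.3 and 78.8 CPM in shATXN7L3 and 77.2, 79.2 and 81.4 CPM in shcontrol. These groups overlapped, with a log2 fold change of 0.01 ± 0.045 (SE). The ratio of IREB2 to ACO1 counts was 1.05, 1.10 and 1.06 in shATXN7L3 and 1.28, 1.31 and 1.37 in shcontrol. Every shATXN7L3 ratio lay below every shcontrol ratio.

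**Figure D2:**
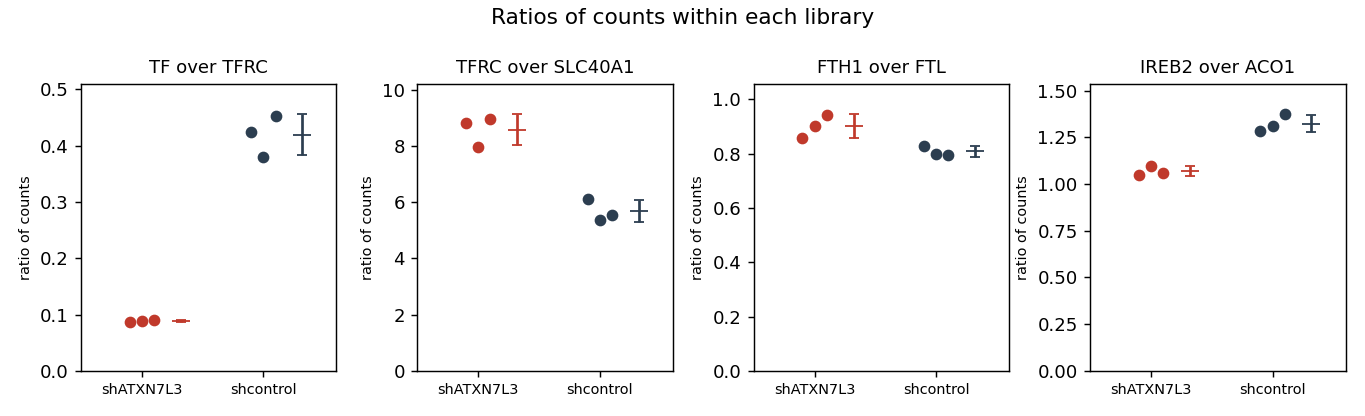
Ratios of raw counts within each library (vertical axes, from 0, no unit) for 4 pairs of genes, with shATXN7L3 in red, shcontrol in dark blue, and mean and SD beside the points. TF over TFRC averaged 0.0887 in shATXN7L3 and 0.419 in shcontrol, IREB2 over ACO1 1.07 and 1.32, TFRC over SLC40A1 8.58 and 5.68, and FTH1 over FTL 0.902 and 0.808, in the same order of groups.

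In the fit across all genes, TF, TFRC, SLC11A2, SLC40A1, FTL and IREB2 were among the genes with a Benjamini-Hochberg adjusted p under 0.05 in edgeR, all lower in shATXN7L3, and FTH1 and ACO1 were not. Over all 17935 tested genes 24.2% were past this threshold, 12.0% of the tested genes lower and 12.2% higher. Among the 12650 protein-coding genes tested, 28.8% were past it, 14.4% lower and 14.4% higher. The same 6 genes had groups that did not overlap in CPM, against 38.3% of all tested genes, 18.4% lower and 19.8% higher. Nothing is read from the 6 of 8, since the genes were chosen from this comparison. Their median log2 fold change was -0.29, beside 0.01 over all tested genes.

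Levels were compared between genes only per length, as TMM-scaled reads per kilobase of exon (RPKM), where the length is the union of the annotated exons. All places and ranks depend on this length, which need not be that of the transcripts in these cells. The level of FTH1 also carries the reservation on BEST1 given above. In shATXN7L3 the order was FTL, FTH1, TFRC, SLC40A1, ACO1, IREB2, TF and SLC11A2, and in shcontrol FTL, FTH1, TFRC, TF, SLC40A1, ACO1, IREB2 and SLC11A2. FTL stood at 865 ± 49.6 RPKM in shATXN7L3 and 967 ± 51.5 RPKM in shcontrol (SD, n = 3 each), ranking 41 and 38 among all tested genes in these groups. FTH1 followed with 337 ± 12.6 RPKM in shATXN7L3 and 338 ± 24.6 RPKM in shcontrol. TFRC was the third in both, with 51.3 ± 1.89 RPKM in shATXN7L3 and 62.2 ± 0.864 RPKM in shcontrol. TF had 4.19 ± 0.107 RPKM in shATXN7L3, where it ranked 7843 among all tested genes, and 24.0 ± 2.35 RPKM in shcontrol, where it ranked 1688. It thus stood at place 7 of the 8 in shATXN7L3 and at place 4 in shcontrol. Neighbours whose libraries overlapped were SLC40A1 and ACO1, and TF and SLC11A2, in shATXN7L3, and ACO1 and IREB2 in shcontrol. Measured as TPM, TF and SLC40A1 also overlapped in shcontrol, and the order of the means was the same. TPM uses the same counts and lengths and differs from RPKM within a library only by a constant factor. The same order is therefore no separate check of the ranking. The median of all tested genes was 3.19 RPKM in shcontrol, so each of the 8 genes lay above it there.

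**Figure D3:**
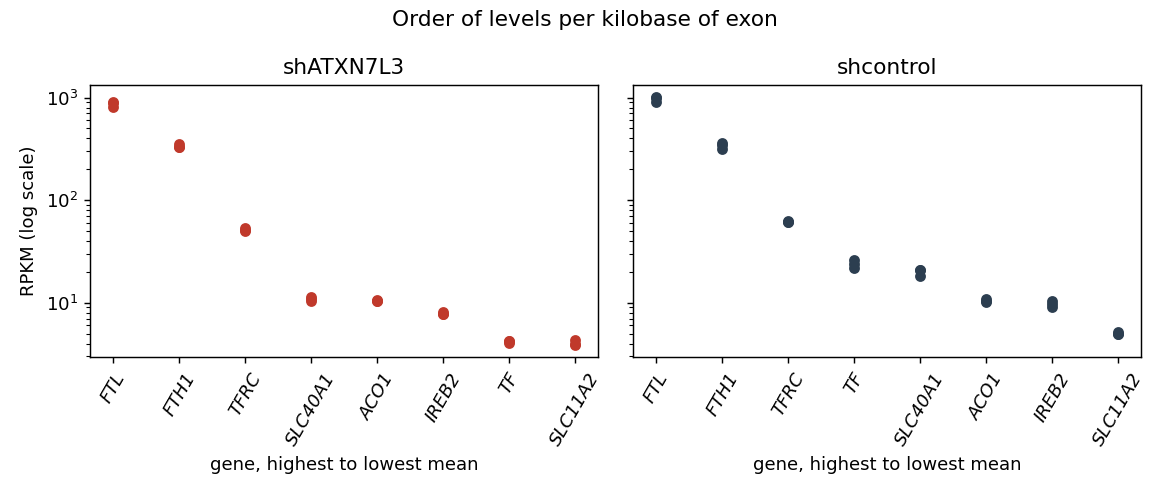
RPKM on a log axis for the 8 detected genes, ordered from the highest to the lowest mean within shATXN7L3 (left) and shcontrol (right), 1 point per library. TF is at place 7 in shATXN7L3 and at place 4 in shcontrol, and both ferritin genes lie above all the others in every library.

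The 5 genes with patterns most like TF were sought among 9477 other tested genes with a mean of at least 10 CPM over the 6 libraries. Likeness was the smallest root mean square difference of log2 CPM deviations over these libraries. The 5 genes are given as a description. They were LUM (0.132), which encodes a collagen-binding proteoglycan, TFP1 (0.234), PRKCB, protein kinase C beta (0.303), IGFBP5, an IGF-binding protein (0.324), and SERPINA1, alpha-1-antitrypsin (0.387). LUM averaged 5.22 CPM in shATXN7L3 and 25.6 CPM in shcontrol, and SERPINA1 5.33 CPM in shATXN7L3 and 18.6 CPM in shcontrol. LUM, SERPINA1 and TFP1 reached the mean of 10 CPM only through shcontrol. The measure includes the difference between the groups, by which TF was chosen. It therefore largely returns genes with a similarly low log2 fold change, here from -2.29 (LUM) to -1.80 (SERPINA1). The nearest of the 8 iron genes to TF was SLC40A1, at 0.830.

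Other genes of iron metabolism were listed by role, and 82 of 84 listed genes had a row in the table. Of 75 tested, 18 fell and 9 rose in shATXN7L3, which is 36.0%, beside 24.2% of all tested genes and 28.8% of the protein-coding ones. Their median log2 fold change was 0.01, the same as that of all genes. The lists were chosen with earlier results of these data known. In the paragraphs that follow, ± after a log2 fold change is an SE and each p is adjusted by Benjamini-Hochberg over all tested genes in edgeR.

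Of 12 tested genes of uptake and endosomal release of iron, 5 fell and 1 rose (median log2 fold change -0.16). That is 50% past the threshold, beside 24.2% of all tested genes and 28.8% of the protein-coding ones. LCN2, a siderophore-binding lipocalin, fell to 2.43 ± 0.298 CPM in shATXN7L3, against 6.38 ± 0.219 CPM in shcontrol (SD, n = 3 each; -1.39 ± 0.13, edgeR adjusted p = 1.32e-07). STEAP2, a metalloreductase, had 70.5 ± 2.31 CPM in shATXN7L3 and 94.7 ± 3.97 CPM in shcontrol (-0.43 ± 0.048, edgeR adjusted p = 1.88e-06). The zinc and iron importers SLC39A8 and SLC39A14 had log2 fold changes of -0.54 ± 0.094 and -0.23 ± 0.044 (edgeR adjusted p = 2.30e-04 and 6.14e-04). STEAP1 also fell (-0.22), and the 1 gene that rose was STEAP3, the endosomal ferrireductase of the transferrin cycle (0.29 ± 0.060, edgeR adjusted p = 0.00145). STEAP1 and STEAP3 were chosen after their values were seen. STEAP3 shares 11.0% of its exon bases with STEAP3-AS1 on the opposite strand, and SLC39A8 shares 3.04% with an overlapping gene on its own strand. HFE, a partner of the transferrin receptor, had a log2 fold change of 0.08 ± 0.089 and did not pass.

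Of 9 tested genes of export, ferroxidases and hepcidin control, 5 fell and 1 rose (median -0.16). That is 66.7%, beside 24.2% of all tested genes and 28.8% of the protein-coding ones. CP, ceruloplasmin, the plasma ferroxidase that works with ferroportin, fell to 339 ± 10.6 CPM in shATXN7L3, against 584 ± 45.6 CPM in shcontrol (SD, n = 3 each; -0.78 ± 0.051, edgeR adjusted p = 8.80e-10). CP shares 19.4% of its exon bases with HPS3 on the opposite strand, which was lower as well. BMP6, a ligand that drives hepcidin in the liver, fell to 19.0 ± 1.20 CPM in shATXN7L3, against 27.5 ± 2.30 CPM in shcontrol (-0.53 ± 0.071, edgeR adjusted p = 1.26e-05). The more abundant BMP2, of the same list, had 64.3 ± 1.55 CPM in shATXN7L3 and 64.9 ± 1.95 CPM in shcontrol and did not pass (-0.01 ± 0.048). ATOH8, a transcription factor, fell (-0.50 ± 0.14, edgeR adjusted p = 0.0138), but not past the threshold without shcontrol replicate 3 (0.0908) or shATXN7L3 replicate 1 (0.0789). NEO1, neogenin, a co-receptor with hemojuvelin, fell (-0.16 ± 0.046, edgeR adjusted p = 0.0183) and lost the call with scaling by library size alone (0.103) and without shATXN7L3 replicate 2 (0.103) or 3 (0.0616). The gene that rose was IL6R, the interleukin 6 receptor (0.14), named after its value was seen. HFE2 (hemojuvelin), HEPH and TMPRSS6 were too low to be tested.

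Of 7 tested genes of ferritin handling and control of the iron regulatory proteins, 1 fell and 0 rose (median -0.07). The share was 14.3%, beside 24.2% of all tested genes and 28.8% of the protein-coding ones. NCOA4, the receptor that delivers ferritin to autophagosomes, fell to 49.8 ± 1.16 CPM in shATXN7L3, against 60.9 ± 1.40 CPM in shcontrol (SD, n = 3 each; -0.29 ± 0.048, edgeR adjusted p = 1.55e-04). FBXL5, the ubiquitin ligase subunit that senses iron and targets iron regulatory protein 2, had 15.5 ± 1.17 CPM in shATXN7L3 and 17.2 ± 0.849 CPM in shcontrol and did not pass (-0.15 ± 0.073). The iron chaperone PCBP1 (0.11 ± 0.046) did not pass either.

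Of 18 tested genes of haem synthesis, transport and breakdown, 5 fell and 3 rose (median -0.01). That is 44.4%, beside 24.2% of all tested genes and 28.8% of the protein-coding ones. LRP1, the receptor of haem-bound hemopexin, fell to 182 ± 6.26 CPM in shATXN7L3, against 271 ± 22.0 CPM in shcontrol (SD, n = 3 each; -0.58 ± 0.053, edgeR adjusted p = 1.03e-07). FLVCR1, described as a haem exporter and a choline transporter, fell by 0.35 (edgeR adjusted p = 4.58e-06), and FECH, ferrochelatase, which inserts iron into haem, by 0.28 (edgeR adjusted p = 8.74e-04). BLVRB, a biliverdin reductase, rose to 25.6 ± 0.443 CPM in shATXN7L3, against 20.5 ± 1.88 CPM in shcontrol (0.31 ± 0.067, edgeR adjusted p = 0.00159). ALAS1, the first enzyme of haem synthesis in liver, and HMOX1, the inducible haem oxygenase, had log2 fold changes of -0.01 ± 0.056 and 0.07 ± 0.049 and did not pass.

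Of 29 tested genes of mitochondrial iron and iron-sulphur cluster assembly, 4 rose and 2 fell (median 0.04). The share was 20.7%, beside 24.2% of all tested genes and 28.8% of the protein-coding ones. The shares of these lists were not compared by a test. FAM96B and FAM96A of the cytosolic assembly machinery rose by 0.36 ± 0.083 and 0.19 ± 0.050 on the log2 scale (edgeR adjusted p = 0.00347 and 0.00903), ISCA1, an assembly factor, by 0.25 ± 0.062 (edgeR adjusted p = 0.00611) and BOLA3 by 0.36 ± 0.090 (edgeR adjusted p = 0.00629). The call of FAM96A ended without shATXN7L3 replicate 3 (0.0519). The mitochondrial iron importer SLC25A37 (0.03 ± 0.051) did not pass.

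**Figure D4:**
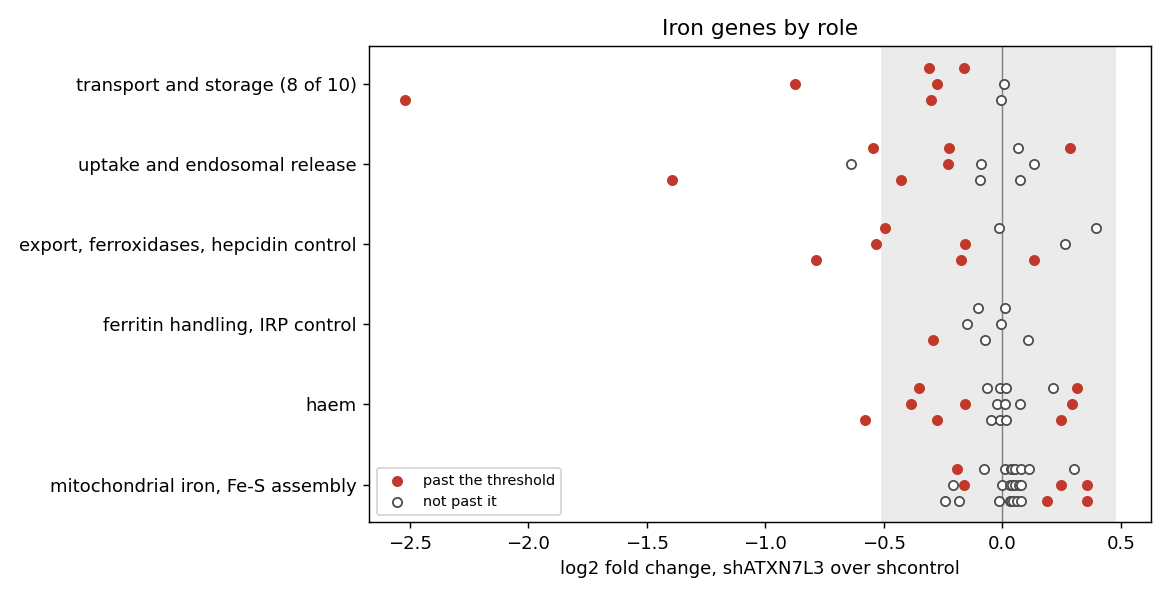
Log2 fold changes of shATXN7L3 over shcontrol (horizontal axis) for the 8 fitted genes of the 10, in the top row, and for the other iron genes by role, each point 1 gene and filled where the adjusted p was under 0.05. The grey band spans the middle 90% of all tested genes, from -0.51 to 0.48; TF at -2.52 and LCN2 at -1.39 lie outside it, and the mitochondrial genes lie inside it.

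Beyond these genes, 128 other tested genes had a match to the iron-responsive pattern in a UTR. Of these, 17 were lower and 9 higher in shATXN7L3 (20.3% past the threshold), beside 28.8% of the protein-coding genes tested. Among the 8 genes with counts, those with matches in the transcribed part that was counted had log2 fold changes of -0.87 (SLC40A1), -0.28 (TFRC), -0.16 (FTL) and -0.01 (FTH1).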

How the data were processed

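Per the file headers, the authors deposited raw read counts per gene symbol with exon coordinates, strands and gene lengths, 1 table for the series. Among the tools in the submitters' processing notes are STAR 2.5.3a, Trimmomatic 0.36, edgeR 3.12.1 and featureCounts (Subread 1.5.1), with GRCh38 as the build. Not given in the sources used here are how strand and multi-mapping reads were handled and which annotation was used.

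Genes were kept with filterByExpr (minimum count 10, minimum total 15), scaled by TMM and tested in R 4.3.3 with edgeR 4.0.16 (quasi-likelihood, no covariate). P-values were adjusted over 17935 genes by Benjamini-Hochberg, with a threshold of 0.05. Each SE was approximated from the log2 fold change and the F statistic, as the one over the root of the other. The fit was also tested on simulated counts with known folds and recovered only part of the changes. A gene that did not pass may therefore still differ. Library pairs within a group differed by more than sampling noise (chi-square 1.59 to 6.52 per gene, where noise alone gives about 1). Alternatives used DESeq2 1.42.0 and limma 3.58.1 among others. The permutation test used scipy 1.17.1. RPKM used the deposited lengths.

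CPM means counts per 1000000 of the TMM-scaled library. The 10 genes and the lists were chosen with earlier results of these data known. From each list the text names up to 4 genes past the threshold with the smallest p, and others where it says so or where they had not passed. Promoters came from RefSeq (8 of the 10 genes matched) and transcripts from GENCODE 29.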

Additional observations from a re-analysis of the deposited data

How the results depend on the processing

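Of the 10 iron genes, 5 to 6 were past the threshold and lower, and 0 higher, under the 14 alternatives of scaling, filter, tool, block and left-out library; the change came from FTL. Log2 fold changes ranged from -2.59 to -2.45 for TF, from -0.93 to -0.83 for SLC40A1, from -0.30 to -0.23 for TFRC and from -0.06 to 0.04 for FTH1. The other iron genes past the threshold numbered 6 to 12 higher and 13 to 18 lower. Over all genes the main counts were 2182 higher and 2150 lower. DESeq2 gave 1405 higher, the cause of which was not tested, and scaling by library size alone gave 2955 higher and 1604 lower. Leaving out 1 library gave 1543 to 2224 higher and 1547 to 2257 lower. Same-numbered libraries did not deviate together over all tested genes (correlations -0.0160, 0.00514 and 0.0442). These values gave no sign that the numbers pair them, but they cannot exclude a shared culture or preparation. With the replicate number as a block, 2188 genes were higher and 2140 lower, and 7 other iron genes were higher and 18 lower. With 0 to 2 counts per library, HAMP and TFR2 were too low for any alternative to bear on them.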
